A study of Mus musculus with 6 samples.

Results

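The RNA of 38 genes that carry fatty acids into the cardiomyocyte and oxidize them was compared between mice with a gene trap in Uty and their wild-type controls. The genes were chosen by symbol, by their place in the pathway, from the 54232 genes of the deposited table. All 38 were present. They fell into 6 uptake genes, 4 activation genes, 4 genes of the carnitine shuttle, 2 genes that set the malonyl-CoA level, 15 genes of beta-oxidation, 3 genes of electron transfer, and a last group of 4 made up of 3 thioesterases and Ucp3.

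Cardiomyocytes came from the hearts of adult male mice after collagenase perfusion and gravity sedimentation, and RNA was taken once the cells had spent 4 h on laminin. One group (UtyGT) carried the trap allele in an intron of Uty, a Y-linked gene related to the histone demethylase gene Kdm6a, and the other (WT) carried the intact Y chromosome of strain 129P2/OlaHsd (C57BL/6.Y<129P2>), so that both had a 129P2 Y chromosome on a backcrossed C57BL/6J background. The trap line came from 1 gene-trap embryonic stem cell line. Each group had 3 libraries, WT e, f and g and UtyGT d, e and f. No treatment was given to either group, and nothing in the labels says more of the replicates than that they are separate samples, so that p-values measure only the spread between these libraries. The values describe cells after isolation and culture.

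The heart draws most of its energy from fatty acids. Lipoprotein lipase frees them from circulating triglyceride, CD36 and binding proteins carry them into and through the cell, acyl-CoA synthetases activate them, and the carnitine shuttle brings them across the mitochondrial membranes. In the matrix, acyl-CoA dehydrogenases, hydratases, hydroxyacyl-CoA dehydrogenases and thiolases shorten the chain in turn, and the electrons pass over electron transfer flavoprotein to the respiratory chain. Many of these genes are known targets of the nuclear receptor PPAR-alpha.

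Values are normalized counts, that is, reads per gene divided by a size factor of each library. Libraries held 28283654 to 48377453 reads. Uty, the trapped gene, had 1093, 1017 and 877 normalized counts in WT e, f and g and 13.9, 10.5 and 8.03 in UtyGT d, e and f, so every library matched its label. Transcripts of the mitochondrial genome took 46.9% to 54.7% of the reads in WT and 39.8% to 44.8% in UtyGT. UtyGT f stood apart in that 28619 genes had at least 1 read there, against 21615 to 22917 in the other libraries. The summed normalized counts of 10 cardiomyocyte markers were 1775290 to 1864670 in WT and 1843520 to 2029230 in UtyGT, and 1 of the 10 (Myl3) rose. Markers of other cells were also present, and they were not level between groups. Of the endothelial, fibroblast, smooth muscle and pericyte, and macrophage markers, 3 of 10, 4 of 9, 4 of 7 and 2 of 8 rose and none fell. Over all tested genes 4.55% rose and 6.12% fell. Of 6 atrial markers 4 rose and 1 (Bmp10) fell, and their sums were 914 to 1118 in WT but 1148, 10039 and 6201 in UtyGT d, e and f. In such bulk samples, fewer cells of a type and less RNA per cell cannot be told apart.

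All 38 genes reached the minimum mean of 10 normalized counts and were tested, as were 13875 genes in all. "Rose" and "fell" refer to an adjusted p under 0.05 for UtyGT against WT (limma on log2 of the normalized count + 1, Benjamini-Hochberg over all tested genes). Of the 38 genes, 3 rose (Etfb, Echs1 and Acadvl), where 4.55% of all tested genes did. A further 3 fell (Cd36, Acadl and Acot1), where 6.12% of all tested genes did. The remaining 32 did not pass the test, although 10 of them had an unadjusted p under 0.05. With the genes that passed, 16 of the 38 had one, beside 3909 of 13875 over all tested genes. The UtyGT libraries lay wholly above the WT libraries in 3 of the 38 genes, against 14.2% of all tested genes, and wholly below them in 7, against 17.7%. The log2 fold change ranged from -0.50 to 0.95, with a median of -0.09 over the 38 genes and 0.00 over all tested genes. It was positive in 15 genes and negative in 23. In 28 genes the 95% interval of the log2 fold change lay within 0.5 of 0.

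The number of calls changed with the library left out, as it did over all tested genes. Leaving a library out also lowers the power of the test, so a lost call alone does not show dependence on that library. Without WT e, without WT f or without UtyGT d, 1 of the 38 genes rose (Etfb) and 0 fell (limma), with 10, 13 and 10 of them at an unadjusted p under 0.05. Over all tested genes, 164, 196 and 280 rose and 244, 233 and 373 fell in the same 3 settings, against 632 and 849 with every library. Without UtyGT e, 4 of the 38 rose and 9 fell, where 1001 and 1231 of all tested genes did, and without UtyGT f or without WT g, 3 rose and 2 fell. With a variance estimate that did not depend on the level of expression, 0 rose and 0 fell (limma), with 7 at an unadjusted p under 0.05. edgeR on the recovered reads gave 4 that rose and 3 that fell, and DESeq2 gave 3 and 3. The 6 genes kept their direction in all 22 alternatives, some of which change only the test and could not alter a direction.

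**Figure D1:**
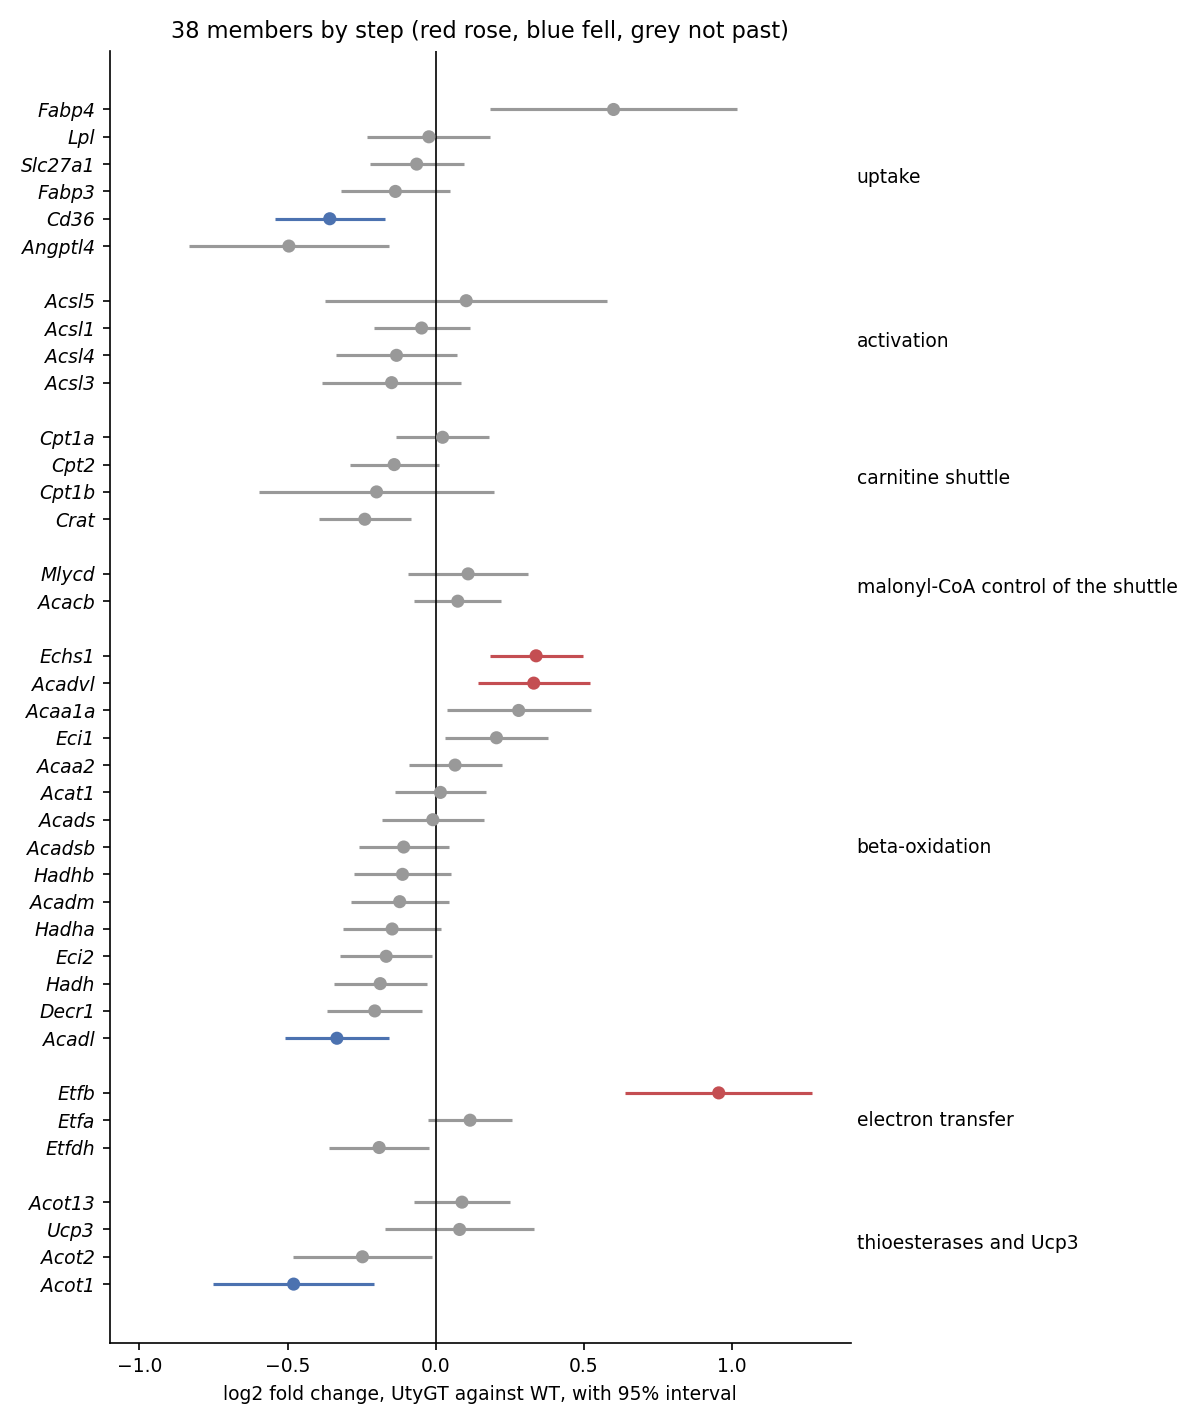
Log2 fold change of each of the 38 genes (UtyGT against WT, x axis) with its 95% interval, grouped by step and ordered by size within a step. Red genes rose, blue genes fell and grey genes did not pass the test. Values run from -0.50 (Angptl4) to 0.95 (Etfb), and most intervals lie within 0.5 of 0.

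The 38 genes took 2.89% to 3.10% of the reads outside the mitochondrial genome in WT and 2.78% to 2.90% in UtyGT. Their summed normalized counts were 612304, 559618 and 580544 in WT e, f and g and 552094, 576678 and 519080 in UtyGT d, e and f. The groups overlapped in this sum, which was highest in WT e and lowest in UtyGT f. The same 2 libraries lay at the ends gene by gene: WT e was the highest WT library for 24 of the 38 genes, and UtyGT f was the lowest UtyGT library for 31. The median difference of the 38 genes from the WT mean was -0.15 on the log2 scale in UtyGT f, against -0.04 in UtyGT d and -0.01 in UtyGT e. The median log2 fold change of the 38 genes was -0.05 both without UtyGT f and without UtyGT d, and it lay between -0.11 and -0.06 when any other library was left out.

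A promoter window of each of the 6 genes that rose or fell is shown so that its sequence can be set beside the direction. RefSeq windows (GRCm38.p6) of 300 bases, from 250 before to 50 after a transcription start, were found for 29 of the 38 genes. Those with no window were Acaa2, Acat1, Acot13, Angptl4, Cpt1b, Crat, Decr1, Fabp4 and Lpl. Sequences run 5′ to 3′ on the strand of the gene, and capitals mark a match, on either strand, to AGGTCA, the core hexamer bound by PPAR-alpha and other nuclear receptors. Etfb is on the plus strand at chr7:43443822-43444121, Echs1 on the minus strand at chr7:140116372-140116671, Acadvl on the minus strand at chr11:70015379-70015678, Cd36 on the minus strand at chr5:17835847-17836146, Acadl on the minus strand at chr1:66863260-66863559, and Acot1 on the plus strand at chr12:84009252-84009551.
Etfb: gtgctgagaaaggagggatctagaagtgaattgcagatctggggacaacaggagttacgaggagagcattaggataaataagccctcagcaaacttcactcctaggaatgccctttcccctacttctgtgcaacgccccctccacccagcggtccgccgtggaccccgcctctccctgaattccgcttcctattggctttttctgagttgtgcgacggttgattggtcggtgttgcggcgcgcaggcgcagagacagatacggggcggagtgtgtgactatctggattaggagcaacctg
Echs1: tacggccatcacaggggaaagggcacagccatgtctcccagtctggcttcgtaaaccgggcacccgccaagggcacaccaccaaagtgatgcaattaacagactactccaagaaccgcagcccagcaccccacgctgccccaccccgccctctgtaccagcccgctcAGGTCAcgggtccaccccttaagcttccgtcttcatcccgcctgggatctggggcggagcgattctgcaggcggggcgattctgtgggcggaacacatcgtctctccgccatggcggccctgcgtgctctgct
Acadvl: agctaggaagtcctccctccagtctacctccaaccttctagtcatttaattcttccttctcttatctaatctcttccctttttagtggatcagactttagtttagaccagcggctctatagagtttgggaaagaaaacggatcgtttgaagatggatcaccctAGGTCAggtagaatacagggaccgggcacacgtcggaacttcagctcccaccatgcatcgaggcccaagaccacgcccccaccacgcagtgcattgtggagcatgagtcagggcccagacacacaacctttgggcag
Cd36: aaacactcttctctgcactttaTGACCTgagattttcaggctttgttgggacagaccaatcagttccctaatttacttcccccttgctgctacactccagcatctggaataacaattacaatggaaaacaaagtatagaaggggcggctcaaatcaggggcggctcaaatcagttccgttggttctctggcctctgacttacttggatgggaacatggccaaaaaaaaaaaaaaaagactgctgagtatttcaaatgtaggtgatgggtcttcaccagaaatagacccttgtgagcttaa
Acadl: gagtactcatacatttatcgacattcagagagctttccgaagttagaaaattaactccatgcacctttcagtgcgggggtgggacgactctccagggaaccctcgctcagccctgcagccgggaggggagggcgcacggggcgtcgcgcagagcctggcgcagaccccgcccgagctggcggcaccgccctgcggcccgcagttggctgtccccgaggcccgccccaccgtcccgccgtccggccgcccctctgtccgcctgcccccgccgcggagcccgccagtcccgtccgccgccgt
Acot1: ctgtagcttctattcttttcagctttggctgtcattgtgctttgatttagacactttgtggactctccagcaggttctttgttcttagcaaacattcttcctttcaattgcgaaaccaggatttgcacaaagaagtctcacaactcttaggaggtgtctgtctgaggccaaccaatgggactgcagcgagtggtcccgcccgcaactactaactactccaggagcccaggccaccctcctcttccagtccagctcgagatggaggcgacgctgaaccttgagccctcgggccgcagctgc

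The hexamer was found in Echs1 and Acadvl, which rose, and in Cd36, which fell, and these letters were not in the windows of Etfb, Acadl and Acot1. It was thus present among genes of both directions. The Cd36 window lies inside the gene, whose annotated 5′ end is at 17888801, so it is not the window of the outermost start. Over all 32 windows of the 29 genes, 7 (21.9%) held it, against 16.3% of 32851 windows of the genome. The other 4 genes with a match, Acacb, Acadm, Cpt1a and Ucp3, did not pass the test. An exact DR1, the full PPAR element of 2 copies of AGGTCA with 1 base between them, was in 0 of the 32 windows. It was in 0.0396% of all windows. TCAAGGTCA, the element of estrogen-related receptors, which contains the hexamer, was in 0 of the 32 and in 0.423% of all. Only exact letters were searched, and letters this rare would nearly always be absent from 32 windows. The counts of 0 thus cannot tell whether the genes have these elements. CACGTG was in 1 of the 32 (Slc27a1) and in 7.15% of all. The windows of the 29 genes had a median GC content of 60.7% and a median of 16.5 CpG, against 52.7% and 7 over all windows. A match describes letters in a window and not a bound site.

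Of the 6 uptake genes, 1 fell (Cd36), beside 6.12% of all tested genes, and none rose, beside 4.55%. The median log2 fold change of the 6 was -0.10. Cd36 (ENSMUSG00000002944; chromosome 5, 17781690 to 17888801, minus strand, GRCm38) encodes the fatty acid translocase of the cell membrane. It had 57095, 50991 and 46313 normalized counts in WT e, f and g and 40655, 39364 and 40068 in UtyGT d, e and f. The WT libraries were spread out and the UtyGT libraries lay close together below all of them. The mean fell by 22.2% in UtyGT (log2 fold change -0.36 ± 0.09 SE, limma adjusted p = 0.0231). The call was lost without WT e (limma adjusted p = 0.114), WT f (0.0948) or UtyGT d (0.071), and with quantile normalization (0.0724). Capillary endothelium also makes CD36. The summed endothelial markers were 18769, 21825 and 20039 normalized counts in WT e, f and g and 25226, 16960 and 26824 in UtyGT d, e and f, so that UtyGT d and f lay above all WT libraries and UtyGT e, the lowest library for Cd36, lay below them. The part of endothelial cells in the Cd36 values was not tested.

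Fabp3, the heart-type fatty acid binding protein, had the highest level per exon length of all 38 genes. It had 39989, 36821 and 41125 normalized counts in WT e, f and g and 36374, 38723 and 32395 in UtyGT d, e and f, and the groups overlapped (log2 fold change -0.14, 95% interval -0.32 to 0.05, limma adjusted p = 0.318). Of its exon sequence, 29.2% of the 50-base windows also occur in another annotated gene (most in Fabp3-ps1), so that reads there cannot be assigned to 1 gene.

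Fabp4, a binding protein of endothelial cells and adipocytes, ran with some other markers. It had 2304, 2442 and 2543 normalized counts in WT e, f and g and 4300, 2395 and 4839 in UtyGT d, e and f. UtyGT d and f were thus high and UtyGT e lay within the WT range. The log2 fold change was 0.60 ± 0.19 SE (limma adjusted p = 0.0645), and it passed the test without UtyGT e (log2 fold change 0.91, 4.51e-06) and with edgeR (0.0445). It passed in 6 of 22 alternatives, and not with DESeq2 (adjusted p = 0.155) or robust eBayes (limma adjusted p = 0.289). The summed endothelial and fibroblast markers also had UtyGT d and f above every WT library and UtyGT e not (fibroblast sums 5594, 8434 and 7372 in WT e, f and g and 10489, 7554 and 10747 in UtyGT d, e and f). The macrophage sum did so too, but the smooth muscle and pericyte sum did not (7671 in UtyGT d, 7767 in WT f). The adipocyte markers summed to between 2.65 and 35.6 normalized counts, and none of the 6 reached the minimum for testing. The part of these cells in the Fabp4 values was not tested.

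The ratio of Fabp4 to Fabp3 within a library does not depend on the scaling between libraries. It was 0.0576, 0.0663 and 0.0618 in WT e, f and g and 0.118, 0.0618 and 0.149 in UtyGT d, e and f. The groups overlapped through UtyGT e (log2 difference 0.74, two-sided exact permutation p = 0.2, adjusted over 7 ratios 0.7). With 3 libraries against 3 the smallest p that this test allows is 0.1.

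**Figure D2:**
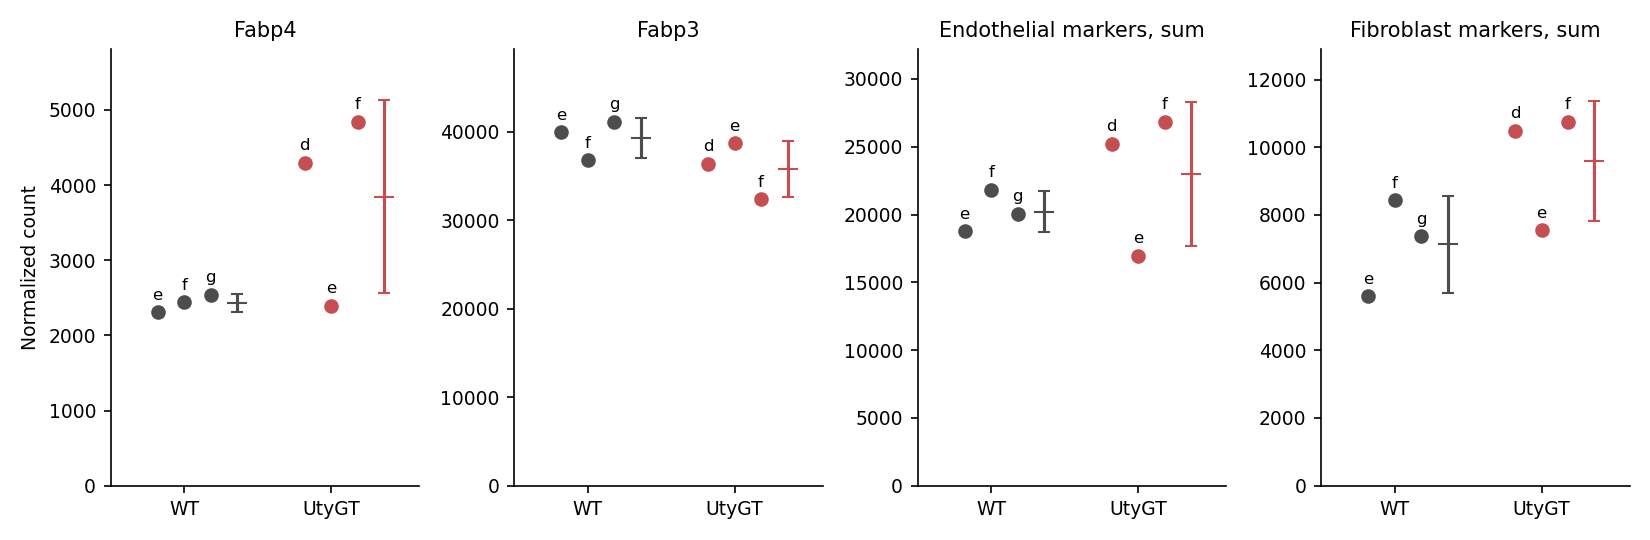
Normalized counts (y axes from 0) of Fabp4, Fabp3 and the summed endothelial and fibroblast markers in each library, named by its letter, with the mean and SD of each group beside the points. UtyGT d and f are above all WT libraries for Fabp4 and both marker sums, and UtyGT e is not.

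Lpl, which encodes the lipase that frees fatty acids from lipoproteins, was second to Fabp3 in level per exon length. It had 165099, 151174 and 159123 normalized counts in WT e, f and g and 156903, 163373 and 147687 in UtyGT d, e and f, with overlap (log2 fold change -0.02, 95% interval -0.23 to 0.18). Angptl4, an inhibitor of that lipase, had 2718, 2015 and 2288 normalized counts in WT e, f and g and 1776, 2037 and 1236 in UtyGT d, e and f. UtyGT d and f lay below all WT libraries, and UtyGT e lay just above WT f. Its log2 fold change of -0.50 ± 0.16 SE was the lowest of the 38 genes with every library in but did not pass (limma adjusted p = 0.0608). It was -0.29 without UtyGT f and -0.65 without UtyGT e, where it passed (limma adjusted p = 0.00538), as it did with upper-quartile scaling (0.0338). Angptl4 passed in 5 of 22 alternatives, and not with DESeq2 (adjusted p = 0.209). Slc27a1, a fatty acid transport protein, had a log2 fold change of -0.06 (95% interval -0.22 to 0.09).

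None of the 4 activation genes passed the test (0 of 4, limma, and 0 at an unadjusted p under 0.05), and their median log2 fold change was -0.09. Among all tested genes 4.55% rose, 6.12% fell and 3909 of 13875 had such a p. Acsl1, the main long-chain acyl-CoA synthetase of the heart, had 36996, 33719 and 33817 normalized counts in WT e, f and g and 33698, 35461 and 31979 in UtyGT d, e and f. The groups overlapped (log2 fold change -0.05, 95% interval -0.21 to 0.11). Per kb of exon Acsl1 had 3324 normalized counts in WT, against 102 for Acsl4, 80.1 for Acsl3 and 34.0 for Acsl5. The ratio of Acsl1 to the sum of these 3 paralogs was 34.2, 32.0 and 31.7 in WT e, f and g and 33.6, 38.8 and 29.1 in UtyGT d, e and f, with overlap (log2 difference 0.04, two-sided exact permutation p = 0.8). Log2 fold changes were -0.15 for Acsl3, -0.13 for Acsl4 and 0.10 for Acsl5. Acsl5 was the least certain of these, with a 95% interval of -0.37 to 0.58 and 116 to 224 normalized counts in UtyGT.

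None of the 4 carnitine shuttle genes passed the test (0 of 4, limma, with 1 at an unadjusted p under 0.05), and their median log2 fold change was -0.17. The shares over all tested genes were 4.55% that rose and 6.12% that fell, with 3909 of 13875 at such a p. Crat, carnitine acetyltransferase, which buffers acetyl-CoA with carnitine, came nearest. It had 20552, 18622 and 19121 normalized counts in WT e, f and g and 16065, 17658 and 15686 in UtyGT d, e and f. All UtyGT libraries lay below all WT libraries, and the mean differed by -15.2% (log2 fold change -0.24 ± 0.07 SE, limma adjusted p = 0.052). It passed with DESeq2 (0.0129) and without UtyGT e (0.0115) and rose to 0.204 without WT e. Cpt2, the inner-membrane carnitine palmitoyltransferase, had 7017 to 7705 normalized counts in WT and 6162 to 7017 in UtyGT (log2 fold change -0.14, 95% interval -0.29 to 0.01).

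Cpt1b and Cpt1a encode the muscle and liver forms of the outer-membrane transferase, the step at which malonyl-CoA holds back fatty acid entry. Cpt1b had 985, 909 and 971 normalized counts in WT e, f and g and 555, 1039 and 996 in UtyGT d, e and f. UtyGT d alone was low, and the others lay above all WT libraries. The log2 fold change was -0.20 (95% interval -0.60 to 0.20) with UtyGT d and 0.09 without it. Of the 3372 exon bases of Cpt1b, 2744 are shared with Gm44502, an annotated gene on the same strand that was given 0 reads. Reads that fall on both would be missing from the count of Cpt1b if they were dropped, which was not tested. The level of Cpt1b was 283 normalized counts per kb of all its exons in WT, and it would be 1521 per kb if every counted read came from the 628 bases that it does not share.

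Cpt1a had 960, 962 and 1038 normalized counts in WT e, f and g and 1050, 990 and 967 in UtyGT d, e and f, with overlap (log2 fold change 0.02, 95% interval -0.13 to 0.18). The ratio of Cpt1b to Cpt1a was 1.03, 0.945 and 0.936 in WT e, f and g and 0.528, 1.05 and 1.03 in UtyGT d, e and f (log2 difference -0.22, two-sided exact permutation p = 1). This ratio is of counts per gene and not of levels per exon length.

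The 2 genes that set the malonyl-CoA level had small positive values. Acacb, the acetyl-CoA carboxylase at the outer membrane that makes malonyl-CoA, had 12685, 12074 and 13631 normalized counts in WT e, f and g and 13938, 13496 and 12955 in UtyGT d, e and f (log2 fold change 0.07, 95% interval -0.07 to 0.22). Mlycd, the decarboxylase that removes malonyl-CoA, had 1104, 1164 and 1304 normalized counts in WT e, f and g and 1332, 1396 and 1131 in UtyGT d, e and f (log2 fold change 0.11, 95% interval -0.09 to 0.31). Both overlapped between groups. Their ratio, Mlycd to Acacb, lay between 0.0870 and 0.0964 in WT and between 0.0873 and 0.103 in UtyGT (log2 difference 0.03, two-sided exact permutation p = 0.8).

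Of the 15 beta-oxidation genes, 2 rose (Echs1 and Acadvl) and 1 fell (Acadl), and 8 had an unadjusted p under 0.05. Over all tested genes 4.55% rose, 6.12% fell and 3909 of 13875 had such a p. The median log2 fold change of the 15 was -0.11, with 6 positive and 9 negative. The 2 dehydrogenases of the longest chains thus went opposite ways.

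Acadvl (ENSMUSG00000018574; chromosome 11, 70010183 to 70015411, minus strand) encodes very long-chain acyl-CoA dehydrogenase of the inner membrane. It had 9829, 9519 and 11684 normalized counts in WT e, f and g and 13484, 13627 and 11833 in UtyGT d, e and f. The groups did not overlap, but WT g and UtyGT f lay close to each other. The mean was 25.5% higher in UtyGT (log2 fold change 0.33 ± 0.09 SE, limma adjusted p = 0.0335). The call was lost without WT e (0.145), WT f (0.155) or UtyGT d (0.113), and with upper-quartile scaling (0.0722). On the opposite strand, 1151 of its 2686 exon bases overlap exons of Dvl2, and the sources used here do not say whether reads were counted by strand. Dvl2 had 957 reads over the 6 libraries against 73709 for Acadvl.

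Acadl (ENSMUSG00000026003; chromosome 1, 66830839 to 66863277, minus strand) encodes long-chain acyl-CoA dehydrogenase of the matrix and had the highest level per exon length of the 15. It had 31832, 28074 and 26790 normalized counts in WT e, f and g and 22205, 24384 and 22105 in UtyGT d, e and f. Every UtyGT library lay below every WT library. The mean fell by 20.8% (log2 fold change -0.33 ± 0.08 SE, limma adjusted p = 0.0244). The call was lost without WT e (0.119), WT f (0.0832) or UtyGT d (0.0944).

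The dehydrogenases of shorter chains did not pass the test. Acadm (medium chain) had a log2 fold change of -0.12 (95% interval -0.29 to 0.04), Acads (short chain) of -0.01 (-0.18 to 0.16) and Acadsb (short and branched chain) of -0.11 (-0.26 to 0.04). None of the 3 separated the groups.

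Echs1 (ENSMUSG00000025465; chromosome 7, 140105710 to 140116476, minus strand) encodes the short-chain enoyl-CoA hydratase that takes the next step. It had 4664, 4750 and 5122 normalized counts in WT e, f and g and 6147, 6611 and 5648 in UtyGT d, e and f. All UtyGT libraries lay above all WT libraries. The mean was 26.6% higher (log2 fold change 0.34 ± 0.07 SE, limma adjusted p = 0.014). The call was lost without WT e (0.076), WT f (0.0773) or UtyGT d (0.0511).

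**Figure D3:**
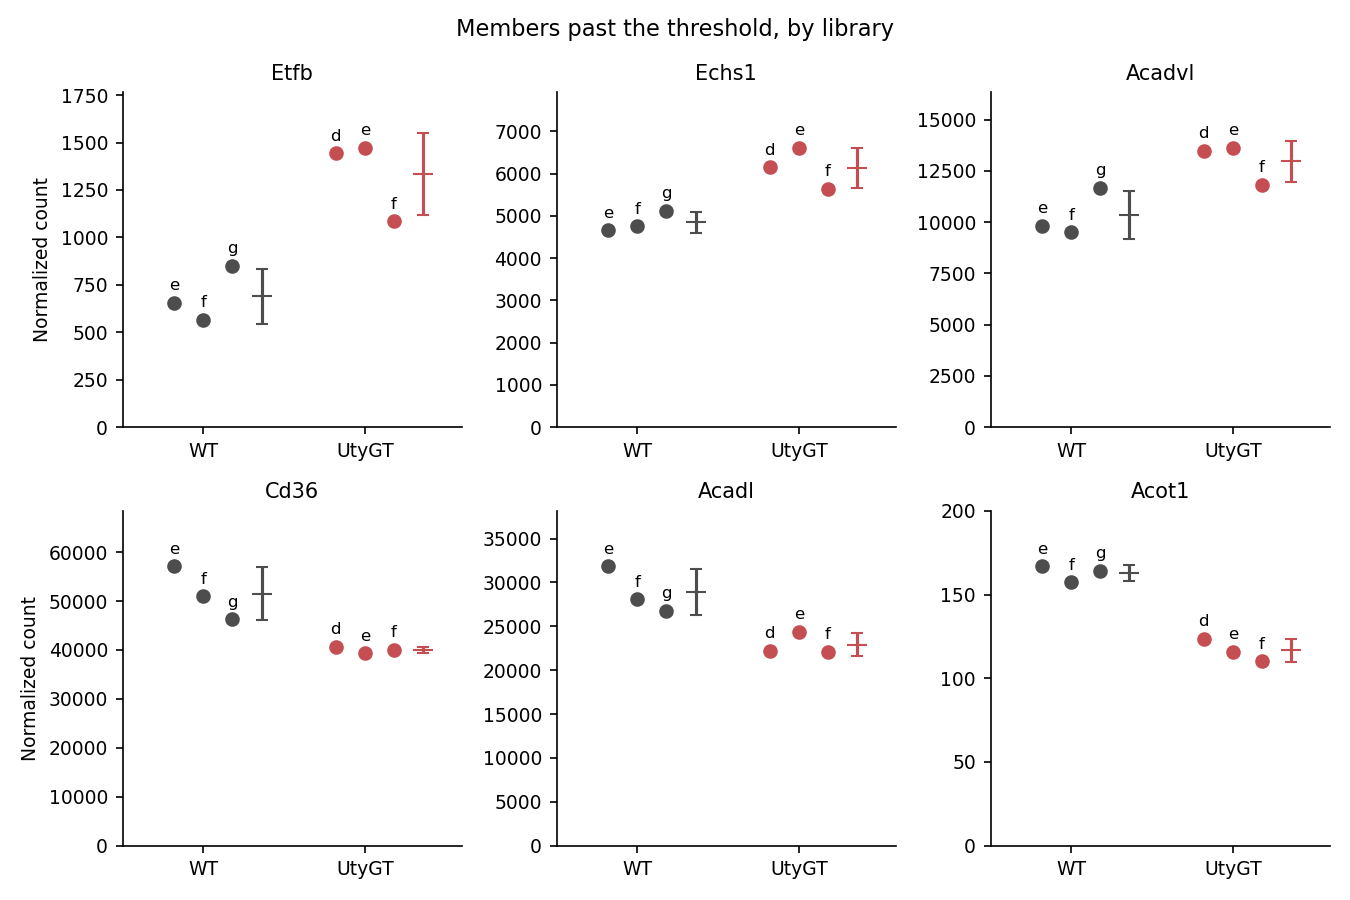
Normalized counts (y axes from 0) of the 3 genes that rose (Etfb, Echs1 and Acadvl, top) and the 3 that fell (Cd36, Acadl and Acot1, bottom) in each library, named by its letter, with the mean and SD of each group beside the points. The groups do not overlap in any of the 6, and for Acadvl WT g at 11684 and UtyGT f at 11833 lie close together.

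Hadha and Hadhb encode the alpha and beta subunits of the mitochondrial trifunctional protein, which carries out the last 3 reactions on long chains. They are transcribed away from each other from starts 86 bases apart on chromosome 5, and the 228 bases that their promoter windows share are shown because 1 stretch serves both genes (chr5:30155003-30155230, plus strand, no match to the motifs above).
Hadha and Hadhb: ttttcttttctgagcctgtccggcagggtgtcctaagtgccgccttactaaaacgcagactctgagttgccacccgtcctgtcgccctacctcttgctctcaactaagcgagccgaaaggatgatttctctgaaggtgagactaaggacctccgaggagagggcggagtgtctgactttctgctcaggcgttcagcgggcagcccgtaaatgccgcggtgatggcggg

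Hadha had 42080, 37836 and 40563 normalized counts in WT e, f and g and 36680, 37884 and 34236 in UtyGT d, e and f (log2 fold change -0.15, 95% interval -0.31 to 0.02). Hadhb had 22252, 20365 and 20169 normalized counts in WT e, f and g and 19150, 20981 and 18022 in UtyGT d, e and f (log2 fold change -0.11, 95% interval -0.28 to 0.05). UtyGT e reached into the WT range in both. The ratio of Hadha to Hadhb stayed between 1.81 and 2.01 in all 6 libraries (log2 difference -0.04, two-sided exact permutation p = 0.6). Of the 50-base windows of Hadhb, 19.7% also occur elsewhere, most in Gm13910.

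Hadh, the short-chain hydroxyacyl-CoA dehydrogenase, had 19211 to 20570 normalized counts in WT and 16069 to 18515 in UtyGT and did not overlap, but it did not pass the test (log2 fold change -0.19 ± 0.07 SE, limma adjusted p = 0.112). Decr1, the dienoyl-CoA reductase needed for unsaturated chains, had 9288 to 10573 in WT and 7985 to 9029 in UtyGT, also without overlap and without passing (log2 fold change -0.21 ± 0.07 SE, limma adjusted p = 0.0922). The 2 enoyl-CoA isomerases, which also serve unsaturated chains, had opposite signs. Eci1 had a log2 fold change of 0.20 (95% interval 0.03 to 0.38) and Eci2 of -0.17 (-0.32 to -0.01), and neither passed the test. The difference between them was not tested.

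Among the thiolases, which split off acetyl-CoA, Acaa2 had a log2 fold change of 0.07 (95% interval -0.09 to 0.22) and Acat1 of 0.02 (-0.14 to 0.17). Acaa1a, the peroxisomal thiolase, had 313, 314 and 389 normalized counts in WT e, f and g and 441, 417 and 373 in UtyGT d, e and f. UtyGT f lay below WT g, and the gene did not pass the test (log2 fold change 0.28 ± 0.11 SE, limma adjusted p = 0.126). Of its 50-base windows, 12.9% also occur elsewhere, most in Acaa1b, and 290 exon bases overlap Myd88 on the opposite strand.

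Of the 3 electron transfer genes, 1 rose (Etfb), beside 4.55% of all tested genes, and 0 fell, beside 6.12%. The median log2 fold change of the 3 was 0.12. Etfb (ENSMUSG00000004610; chromosome 7, 43444083 to 43457800, plus strand) encodes the beta subunit of electron transfer flavoprotein, which takes electrons from the acyl-CoA dehydrogenases. It had 655, 567 and 850 normalized counts in WT e, f and g and 1443, 1472 and 1084 in UtyGT d, e and f. Every UtyGT library lay above every WT library, with UtyGT f the lowest of them and WT g the highest of the controls. The mean was 93.0% higher (log2 fold change 0.95 ± 0.14 SE, limma adjusted p = 0.00229), the largest rise of the 38 genes. The adjusted p stayed under 0.05 whichever library was left out (0.000689 to 0.0186), with a log2 fold change of 0.82 to 1.11, and was 0.0735 with a variance estimate that did not depend on the level of expression.

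Of the 1164 exon bases of Etfb, 617 are shared with Gm45233, an annotated gene on the same strand that was given 2 reads over the 6 libraries. The reads counted for Etfb numbered 573, 454 and 1103 in WT e, f and g and 2182, 1257 and 945 in UtyGT d, e and f, and they came from the bases that it does not share with another gene if reads on both were dropped. On the same condition the level per kb of its 486 unshared bases was 1421 normalized counts in WT and 2743 in UtyGT.

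Etfa, the alpha subunit of the same flavoprotein, had 10902, 10023 and 10145 normalized counts in WT e, f and g and 11105, 11802 and 10762 in UtyGT d, e and f. UtyGT f lay below WT e, and the gene did not pass the test (log2 fold change 0.12, 95% interval -0.03 to 0.26, limma adjusted p = 0.273). The ratio of Etfa to Etfb was 16.6, 17.7 and 11.9 in WT e, f and g and 7.69, 8.02 and 9.92 in UtyGT d, e and f. It was lower in all 3 UtyGT libraries (log2 difference -0.84, two-sided exact permutation p = 0.1, the smallest this test allows, adjusted over 7 ratios 0.7). Etfdh, the oxidoreductase that passes the electrons on to ubiquinone, had 18288 to 20995 normalized counts in WT and 15742 to 18161 in UtyGT. Its groups did not overlap, but it did not pass the test (log2 fold change -0.19 ± 0.08 SE, limma adjusted p = 0.133).

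Of the last 4 genes, 1 fell (Acot1), beside 6.12% of all tested genes, and 0 rose, beside 4.55%. The median log2 fold change of the 4 was -0.08. Acot1 (ENSMUSG00000072949; chromosome 12, 84009490 to 84018371, plus strand) encodes the cytosolic thioesterase that splits long-chain acyl-CoA back to fatty acid, and it was next to last of the 38 in level per exon length. It had 167, 157 and 164 normalized counts in WT e, f and g and 124, 116 and 110 in UtyGT d, e and f. Both groups were narrow and lay apart. The mean fell by 28.4% (log2 fold change -0.48 ± 0.12 SE, limma adjusted p = 0.032). The call was kept without UtyGT e (0.0315) and lost when any 1 of the others was left out (0.0631 to 0.122), with DESeq2 (0.0879), and with a variance estimate that did not depend on the level of expression (0.0539).

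Acot2, its mitochondrial paralog, starts 21629 bases from Acot1. It had 3669, 2664 and 2759 normalized counts in WT e, f and g and 2424, 2753 and 2417 in UtyGT d, e and f. WT e stood high, and UtyGT e lay within the range of the other WT libraries (log2 fold change -0.25 ± 0.11 SE, limma adjusted p = 0.158). Without WT e the log2 fold change was -0.10. The ratio of Acot2 to Acot1 was 22.0, 16.9 and 16.8 in WT e, f and g and 19.6, 23.7 and 21.9 in UtyGT d, e and f, with overlap (log2 difference 0.24, two-sided exact permutation p = 0.3). The paralogs have 527 of their 50-base windows in common, and 19.2% of the windows of Acot1 and 27.7% of those of Acot2 occur in some other gene. Acot1 is therefore uncertain in that reads from Acot2 could be counted for it.

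Acot13, a further thioesterase of mitochondria, had 4468, 4380 and 4430 normalized counts in WT e, f and g and 4324, 5271 and 4573 in UtyGT d, e and f, with overlap (log2 fold change 0.09, 95% interval -0.07 to 0.25). Per exon length it had the highest level of its group. Ucp3, an uncoupling protein homolog whose RNA is known to follow fatty acid supply in muscle, had 551 to 769 normalized counts in UtyGT and 590 to 685 in WT (log2 fold change 0.08, 95% interval -0.17 to 0.33).

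**Figure D4:**
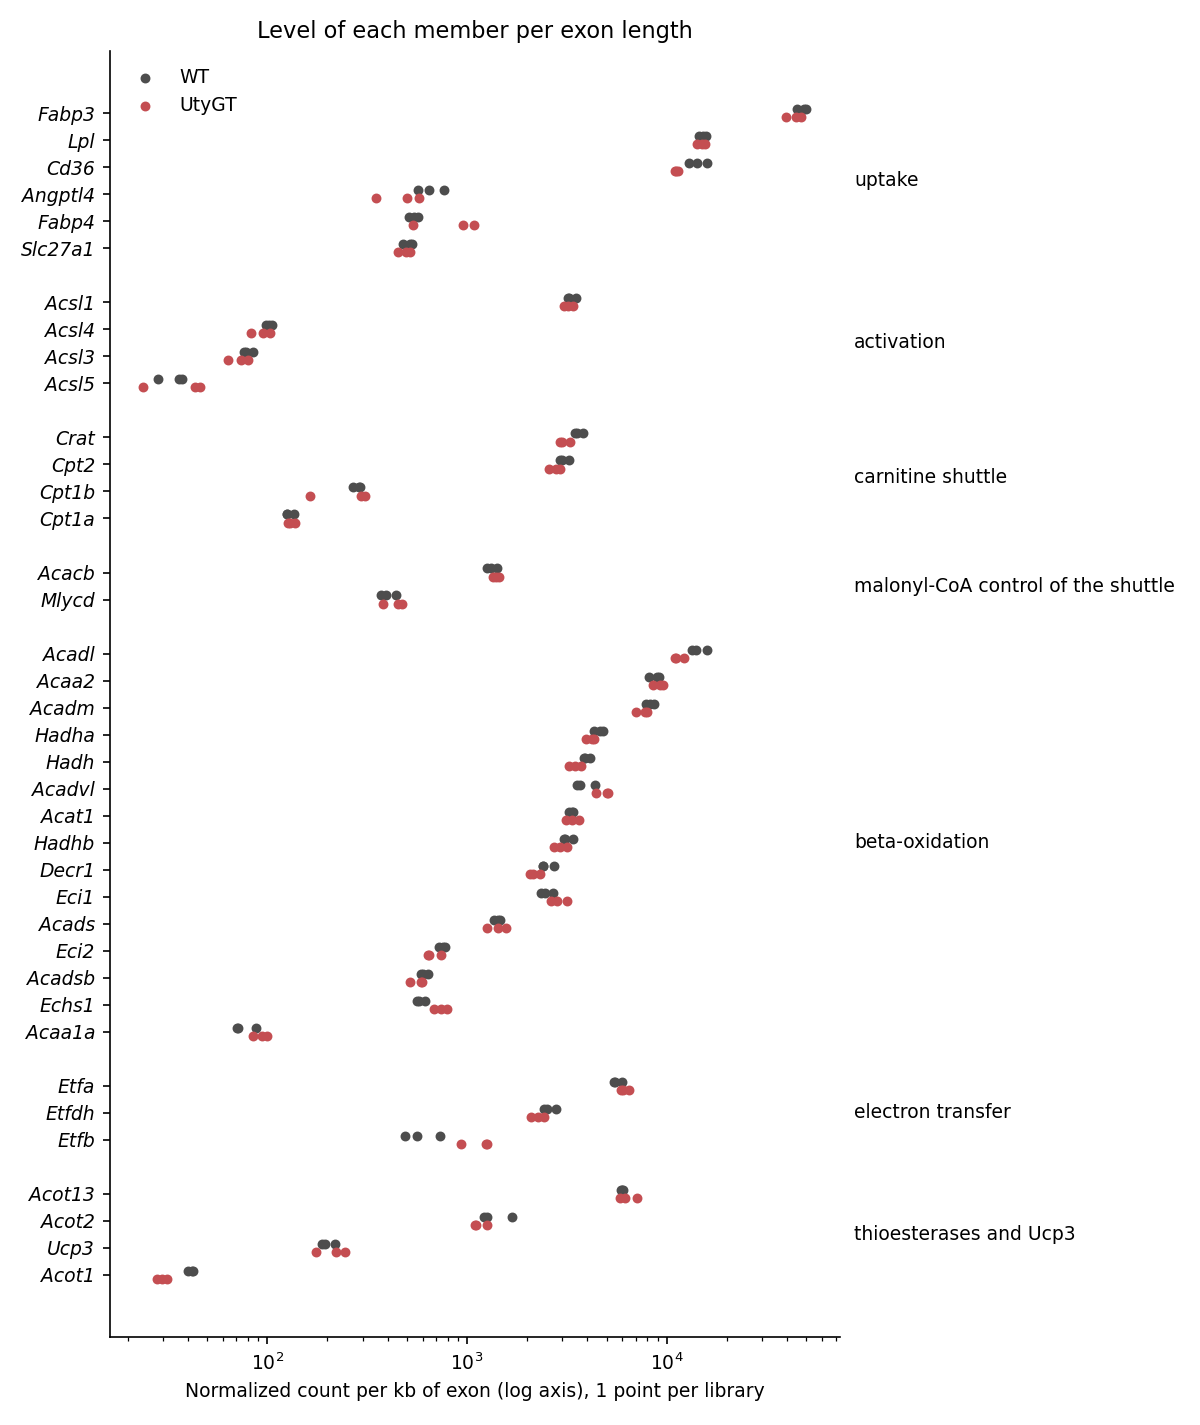
Normalized counts per kb of exon (log x axis) of each of the 38 genes, 1 point per library, grouped by step and ordered by the WT mean within a step. Means in WT run from 34.0 per kb (Acsl5) to 47766 per kb (Fabp3), and the points of WT and UtyGT overlap in all but the 3 genes that lie higher and the 7 that lie lower in UtyGT.

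GC content moved with the fold changes. GC content was that of the longest transcript of each gene. Over 13864 genes with a value, Spearman's rho between GC content and log2 fold change was 0.20, and over the 38 genes 0.27. Both are descriptions, since genes of 1 set of libraries are not independent. The median log2 fold change of all genes was -0.07 below a GC content of 40% and 0.14 from 60% up. The trend also differed between the WT libraries. Below 40% the median difference from the WT mean was 0.06, 0.02 and -0.08 in WT e, f and g. From 60% up it was -0.08, -0.02 and 0.10. In UtyGT d, e and f it was -0.07, -0.11 and -0.05 below 40% and 0.14, 0.18 and 0.08 from 60% up. WT g thus ran in the same direction as the UtyGT libraries. The source of the trend was not tested. The 3 genes that rose had a median GC content of 53.7%, the 3 that fell 45.1%, and all 38 genes 50.3%. After a smooth trend in GC content was taken out of each library, a step added after the data had been seen, 3 of the 38 genes rose and 4 fell. All 6 calls remained, with limma adjusted p between 0.00289 (Etfb) and 0.0366 (Acot1), and Crat passed as well (0.0237).

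**Figure D5:**
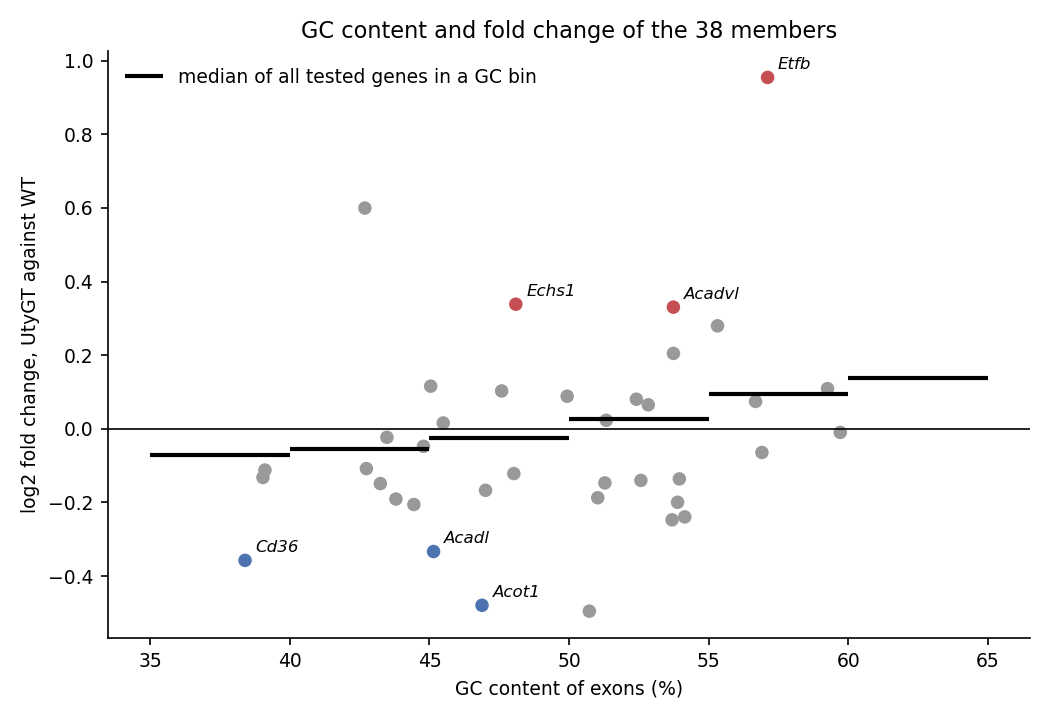
GC content of the longest transcript of each gene (x axis, percent) and log2 fold change of UtyGT against WT (y axis) of the 38 genes. Genes that rose are in red, genes that fell in blue and the rest in grey. Black bars give the median log2 fold change of all tested genes in bins of GC content, from -0.07 below 40% to 0.14 from 60% up. The bars compare the groups, and the trend also differed between the WT libraries.

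A wider set of 83 genes in 8 lists, from uptake partners to peroxisomal oxidation, was looked at beside the 38. Of these, 82 were in the table and 75 were tested: 2 rose and 7 fell, beside 4.55% and 6.12% of all tested genes, and the median log2 fold change was -0.03. Next to Lpl, Gpihbp1, the endothelial protein that anchors the lipase in capillaries, had 146, 176 and 166 normalized counts in WT e, f and g and 297, 218 and 320 in UtyGT d, e and f. Like Fabp4 it was highest in UtyGT d and f, but UtyGT e too lay above WT (log2 fold change 0.76 ± 0.15 SE, limma adjusted p = 0.0101). Dbi, the acyl-CoA binding protein, had 2596, 2103 and 2271 normalized counts in WT e, f and g and 1664, 1860 and 1535 in UtyGT d, e and f, and it fell (log2 fold change -0.46 ± 0.09 SE, limma adjusted p = 0.0104). Slc25a20, the carnitine-acylcarnitine carrier that works between Cpt1 and Cpt2, did not pass the test (log2 fold change -0.08, limma adjusted p = 0.592).

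Around activation, Acsf2 and Acsm5, acyl-CoA synthetases of medium chains, both fell, with log2 fold changes of -0.49 ± 0.09 SE (limma adjusted p = 0.00667) and -0.57 ± 0.12 SE (0.0141). Of 19 tested genes of other mitochondrial oxidation steps 1 rose, Echdc2 (log2 fold change 0.39 ± 0.10 SE, limma adjusted p = 0.0276), and 0 fell. Of 13 tested peroxisomal genes 0 rose and 1 fell, and the median log2 fold change was -0.14, with 10 of 13 negative, beside 6901 of 13875 over all tested genes. The gene that fell was Phyh, the hydroxylase that starts phytanic acid breakdown (log2 fold change -0.31 ± 0.07 SE, limma adjusted p = 0.0148). Nudt19, a coenzyme A hydrolase, and Prkab2, a subunit of the kinase that holds acetyl-CoA carboxylase in check, fell by 0.36 and 0.33 on the log2 scale (limma adjusted p = 0.0251 and 0.0281). The highest fold change of the wider set was that of Fabp5, a further binding protein, which had 48.0, 57.5 and 50.9 normalized counts in WT e, f and g and 111, 55.04 and 137 in UtyGT d, e and f. It was high in the same UtyGT libraries as Fabp4 and did not pass the test (log2 fold change 0.85 ± 0.28 SE, limma adjusted p = 0.0714).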

How the data were processed

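The labels and the study's methods describe RNA treated with DNase and depleted of ribosomal RNA, and stranded single 50-base reads. The labels name the material both total RNA and cytoplasmic RNA, so it is uncertain whether nuclear RNA is included. The authors used CASAVA 1.4, STAR 2.5.1b on GRCm38, featureCounts 1.6.0 and DESeq2 1.22.2. The handling of strand and of multi-mapping reads in counting was not given in the sources used here. As deposited, the signal values are normalized counts, made by the authors by dividing the reads of each gene by a library size factor. All values (100%) were whole multiples of the value of 1 read (tolerance 0.001), so whole reads were recovered for depth and count tests. The deposited table also holds the authors' own comparison, with log2 fold changes and their errors, a Wald score and raw and adjusted p-values. The authors computed these, and they were left aside here.

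Normalized counts with a pseudocount of 1 were compared on the log2 scale with limma 3.58.1 (eBayes with a trend) in R 4.3.3, over the 13875 genes with a mean of at least 10, two-sided, with Benjamini-Hochberg adjustment and a threshold of 0.05. Fold changes of low genes are understated on this scale. On recovered reads, edgeR 4.0.16 called 730 genes higher and 812 lower and DESeq2 1.42.0 called 602 and 866, against 632 and 849 with limma. Rows without a gene name held at most 0.00378% of the reads. The tests were checked on simulated counts. Exon lengths, GC content, overlaps and 50-base windows were taken from GENCODE M21 (GRCm38), where 54165 of the 54232 identifiers were found, and promoters from RefSeq. Ratios were compared with a two-sided exact permutation test over libraries (SciPy 1.17.1).

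The members and lists were chosen with earlier results of these data known. Values in every library are given for the genes that passed the test, the most abundant gene per length of each step and the genes of the ratios, and some further genes near the threshold were described in the same way after their values were seen. Of the wider lists, the genes past the threshold and those at the ends of the fold changes were to be named, and 1 of these is not reported here. Alternatives were edgeR and DESeq2, a pseudocount of 0.5 or 8, a minimum mean of 1 or 50 or no minimum, quantile or upper-quartile scaling, size factors without the mitochondrial genome, eBayes without a trend or robust, a replicate block, protein-coding genes only, a threshold of 0.01, each library left out and, added after the data were seen, removal of a GC trend. Of the wider lists, Mut was not analysed here.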

Additional observations from a re-analysis of the deposited data

How the results depend on the processing

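No alternative turned the direction of the 6 genes that rose or fell, and over all 38 genes 24 of 836 values under 22 alternatives changed sign. The alternatives that changed only the minimum mean, the variance estimate, the genes tested or the threshold left every fold change as it was. They could not change a sign, although they are counted among the 836 values. Of the 38 genes, 5 rose with quantile normalization (Eci1 and Etfa were added) and 6 fell with no filter on low values. At an adjusted p under 0.01, 1 rose and 0 fell (limma, with 16 genes at an unadjusted p under 0.05). With eBayes without a trend 0 rose and 0 fell (limma, 7 at an unadjusted p under 0.05), while the genes called overall went from 632 higher and 849 lower to 76 and 70. Leaving out 1 library at a time gave 1 to 4 that rose and 0 to 9 that fell; the fewest were without WT e, WT f or UtyGT d and the most without UtyGT e. Cpt1b went from -0.20 with every library to 0.091 without UtyGT d. Other values that changed sign were near 0 after the change. With quantile normalization they were Fabp3 (0.020), Slc27a1 (0.0088), Acsl1 (0.057), Acads (0.064), Hadha (0.026) and Hadhb (0.010), with the GC trend removed Lpl (0.030) and Acacb (-0.0029), with upper-quartile scaling Cpt1a (-0.020) and Acat1 (-0.028), and with edgeR Acads (0.0064). With 1 library left out the ranges were -0.057 to 0.016 (Lpl), -0.068 to 0.40 (Acsl5), -0.011 to 0.060 (Cpt1a), -0.36 to 0.091 (Cpt1b), -0.084 to 0.071 (Acads), -0.044 to 0.069 (Acat1) and -0.026 to 0.21 (Ucp3). The causes of these changes were not tested. The median log2 fold change of the 38 genes was -0.09 as reported, 0.015 with quantile normalization and -0.13 with upper-quartile scaling. DESeq2, which also took genes without a filter, moved the median of all genes to 0.14 and left that of the 38 at -0.08.

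The letters e and f occur in both groups, and nothing says that they mark a pair. The deviations of the same-lettered libraries from their group means correlated at 0.11 (e) and 0.15 (f) over genes. Pairs of WT and UtyGT libraries with different letters ran lower, from -0.15 (WT f with UtyGT e) to 0.08 (WT g with UtyGT d). With these letters as a replicate block, WT g and UtyGT d stood alone in their blocks, so the fold changes came from the e and f libraries only. In that fit 4 of the 38 genes rose (Fabp4 was added) and 3 fell (Angptl4 in place of Acot1). Cpt1b, which was low in UtyGT d, changed sign (0.10). With 3 libraries a group, the intervals given limit what can be said of genes that did not pass.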
